A study of Homo sapiens with 12 samples.

Results

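The Sprouty and SPRED genes encode feedback inhibitors of the ERK pathway. All 7 members were taken by name from a table of 60591 genes, which listed the 4 Sprouty genes (SPRY1, SPRY2, SPRY3 and SPRY4) and the 3 SPRED genes (SPRED1, SPRED2 and SPRED3). RNA-seq had been performed on PC9 and H1650 cells, established lines of non-small cell lung cancer with activating EGFR mutations. In each line, T0 cells received 0.1% DMSO and were collected at 0 h, erlotinib cells received 10 μM erlotinib for 36 h, and osimertinib cells received 0.1 μM osimertinib for 36 h. Each of these 6 groups had 2 replicates, which gives 12 libraries. The doses differed and no dose series was sequenced, so the drugs are compared below only as they were given. T0 cells were the only vehicle controls analysed here, and each change from T0 therefore includes whatever 36 h in culture altered. The T0 libraries of a line serve both of its drug comparisons.

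EGFR signals through RAS, RAF and MEK to the kinase ERK. ERK activity raises transcription of the Sprouty and SPRED genes, and their proteins in turn restrain the same cascade. Sprouty proteins are phosphorylated on a conserved tyrosine after growth factor stimulation and bind the adaptor GRB2 and the ubiquitin ligase CBL. SPRED proteins carry an EVH1 domain that binds NF1, the GTPase activating protein that switches RAS off, and bring it to the membrane. SPRED1 and SPRED2 also carry a domain that binds the receptor KIT. Erlotinib is a reversible and osimertinib a covalent inhibitor of EGFR.

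The promoters of the members were examined for the binding motifs of 3 transcription factor families that ERK signaling acts on. RefSeq (GRCh38.p14) gave 13 windows for the 7 members, each with the 250 bases before an annotated start and the 50 bases from it on, and their GC content ranged from 39.3% to 76.3%. Both strands were searched for the ETS core CCGGAA, the AP-1 motif TGANTCA and the CRE motif TGACGTCA. The ETS core stood in 2 member windows, the AP-1 motif in 2 and the CRE motif in 0, and no match overlapped another. Over all 35116 promoter windows of the same 300-base length, 17.2% held the ETS core, 7.71% the AP-1 motif and 1.85% the CRE motif. The ETS core is thus common in promoters, and the other 2 motifs are less so. Whether the member windows differ from these shares was not tested. The stretches that hold a match are shown because they let the members' promoters be compared letter by letter, with the matched bases in capitals. For SPRY2 the 200 bases before its outermost RefSeq start are given (chr13:80341127-80341326, minus strand), which lie outside the annotated exons of the gene. For SPRY1 (chr4:123398307-123398336, plus strand), SPRED2 (chr2:65366767-65366796, minus strand) and SPRED3 (chr19:38389719-38389748, plus strand) only the 30 bases around a match are given.
SPRY2: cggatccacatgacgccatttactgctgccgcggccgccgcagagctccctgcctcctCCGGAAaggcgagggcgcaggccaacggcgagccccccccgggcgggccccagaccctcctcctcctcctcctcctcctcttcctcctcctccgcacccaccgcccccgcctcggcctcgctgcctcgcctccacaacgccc
SPRY1: tgccctccgcagCCGGAAgggggccgcggg
SPRED2: ctaaccctcggaTGACTCAtccggtacaat
SPRED3: cccgttgctgggTGACTCAgtgagctttgc
With the base before a start counted as -1, the ETS core began at -142 in SPRY2 and at -67 in SPRY1, and the AP-1 motif began at -6 in SPRED2 and at -60 in SPRED3. The starts with a match in SPRY1, SPRED2 and SPRED3 are inner ones, at positions 123398386, 65366778 and 38389791. The windows at the outer starts of these genes held no match. The SPRED2 window with a match held a further AP-1 match at 35. The windows of SPRY3, SPRY4 and SPRED1 held no match to these 3 letter strings. These matches describe the sequence only, and no binding was measured here.

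Depth was similar across libraries, with 17961765 to 26346187 reads counted on genes. Mitochondrial genes took a larger share of the reads in drug-treated cells, 6.32% to 7.20% in PC9 against 5.17% and 4.54% at T0, and 5.77% to 6.60% in H1650 against 4.36% and 5.36% at T0. The part of this in the results below was not tested. Levels are given as normalized CPM, for which edgeR's TMM method sets the effective size of each library. After its filter on low counts, 19108 genes were left for testing. A difference was called where the quasi-likelihood test of edgeR gave a Benjamini-Hochberg adjusted p under 0.05, and every adjusted p below is taken over those 19108 genes. All 7 epithelial markers examined were at 10 CPM or more in every group, with a summed level of 6637 to 14076 CPM over the libraries. The lung lineage markers NKX2-1, NAPSA and SFTPB summed to 0.419 to 1.85 CPM, so these defining genes of alveolar epithelium were near absent. Of 10 markers of fibroblasts, blood and endothelium, only COL1A1 reached 10 CPM. Their sum was 21.6 to 23.8 CPM in PC9 T0 cells and 42.9 to 51.8 CPM in PC9 osimertinib cells, and the part of this change in the results below was not tested. In bulk RNA, fewer cells with a transcript and less transcript per cell cannot be told apart.

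Of the 7 members, 6 passed the filter. SPRY3, which lies in a pseudoautosomal region shared by the X and Y chromosomes (chrX:155767812-155782459), had 14 reads in the 12 libraries together and at most 5 in any of them. Its deposited length of 18038 bases equals the 9019 bases of its exons in GENCODE 29 counted once on each chromosome. The other 17 protein-coding genes of the pseudoautosomal regions in the table were also at or near 0. SLC25A6 had 0 reads, VAMP7 2 and CD99 6, genes transcribed in most cell types. The level of SPRY3 is therefore not known from these counts, and the results below are those of the 6 tested members. None of their exons overlapped an exon of another gene in GENCODE 29. The deposited lengths of SPRY2, SPRED1 and SPRED2 were 3213, 7750 and 5505 bases, against 3038, 8260 and 5154 bases of exons in that release. The overlap check may therefore not cover the exons on which the reads of these genes were counted.

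**Figure D1:**
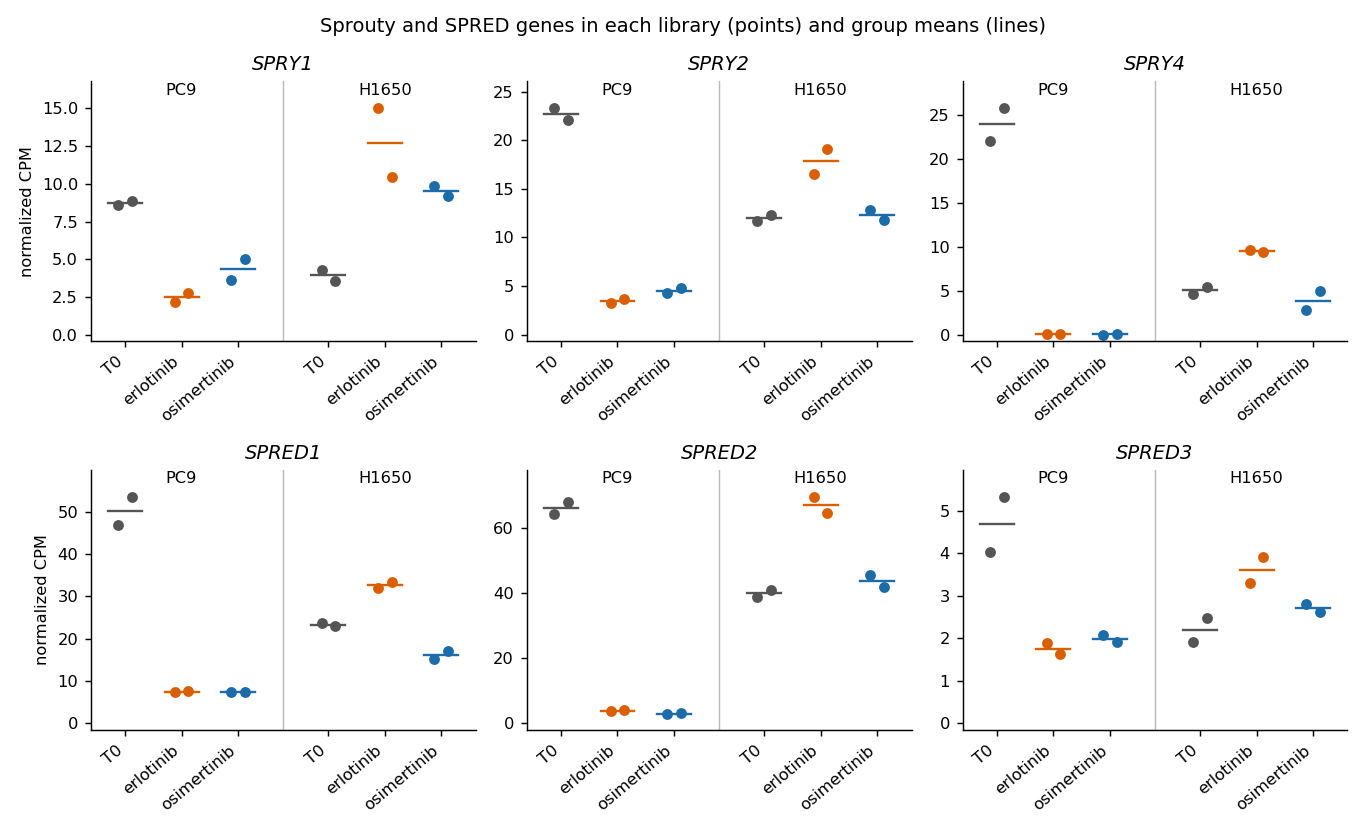
Normalized CPM (y axis, linear from 0, own scale per gene) of the 6 tested members in each of the 12 libraries; points are libraries, lines are means of 2 libraries, and colors mark T0 (grey), erlotinib (orange) and osimertinib (blue). In PC9 every drug-treated library sits below both T0 libraries for all 6 genes, and in H1650 every erlotinib library sits above both T0 libraries. The share of all tested genes with such separation was not counted.

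Before drug, the family was transcribed at higher levels in PC9 than in H1650. SPRED2 (chr2:65310851-65432637) was the most abundant member per length in both lines, at 12.1 ± 0.454 CPM per kb of transcript in PC9 T0 cells and 7.27 ± 0.249 in H1650 T0 cells (SD, n = 2). SPRY2 (chr13:80335976-80340951) followed at 7.07 ± 0.259 and 3.74 ± 0.141 CPM per kb, and SPRED1 (chr15:38252326-38357249) at 6.46 ± 0.613 and 3.002 ± 0.07 CPM per kb. SPRY4 (chr5:142310427-142326455) stood at 3.64 ± 0.397 CPM per kb in PC9 and 0.766 ± 0.0886 in H1650. SPRY1 (chr4:123396795-123403760) and SPRED3 (chr19:38388421-38399587) were the lowest of the 6 in PC9, at 2.20 ± 0.0473 and 0.798 ± 0.156 CPM per kb. All 6 were lower in H1650 than in PC9 at T0, where 33.8% of the tested genes were called lower. The largest difference was that of SPRY4, 4.74-fold lower in H1650 (log2 difference -2.24 ± 0.19 SE, adjusted p = 3.08e-11), and the smallest that of SPRED2, 1.66-fold lower (-0.73 ± 0.09, adjusted p = 3.20e-08).

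In PC9 cells, the whole tested family fell with either drug. All 6 tested members were lower after erlotinib and after osimertinib, where 29.1% and 28.7% of the tested genes were called lower and 32.7% were called higher in each case. The median log2 fold change of the 6 was -2.73 with erlotinib and -2.54 with osimertinib, against 0.07 and 0.06 over all tested genes.

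Among the Sprouty genes, SPRY4 fell most. It had 438 and 522 reads in the PC9 T0 libraries, 2 and 1 reads in the erlotinib libraries, and 0 and 1 reads in the osimertinib libraries. The transcript was thus close to undetected after 36 h of either drug. Over summed reads, the T0 level was 382.6 times the erlotinib level (exact 95% counting interval 130.5 to 1859) and 944.8 times the osimertinib level (169.2 to 37360). These intervals cover counting error only, and the fitted log2 fold changes of -8.45 and -9.59 (adjusted p = 2.13e-17 and 4.05e-17) depend on the prior count. Leaving out erlotinib replicate 1 or 2 gave -9.06 or -7.97, and leaving out osimertinib replicate 1 or 2 gave -8.60 or -12.04. SPRY4-AS1, a noncoding gene within the span of SPRY4, had 17 and 13 reads at T0 in PC9 and 0 reads in all 4 drug-treated PC9 libraries.

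SPRY2, the member best known for binding CBL, had 23.3 and 22.1 CPM at T0 in PC9, 3.27 and 3.67 CPM with erlotinib, and 4.25 and 4.82 CPM with osimertinib. Neither drug's libraries overlapped T0. It was 6.52-fold lower with erlotinib (log2 fold change -2.70 ± 0.15 SE, adjusted p = 3.73e-15) and 5.02-fold lower with osimertinib (-2.33 ± 0.15, adjusted p = 7.54e-14).

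SPRY1 had 8.57 and 8.84 CPM at T0 in PC9, 2.19 and 2.77 CPM with erlotinib, and 3.65 and 5.05 CPM with osimertinib. All drug-treated libraries were below T0, by less than for SPRY2 and SPRY4. The fold change was 3.48-fold lower with erlotinib (-1.80 ± 0.22, adjusted p = 3.36e-08) and 2.02-fold lower with osimertinib (-1.01 ± 0.21, adjusted p = 0.000106).

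The SPRED genes fell alongside. SPRED2 went from 64.6 and 68.1 CPM at T0 to 3.72 and 4.14 CPM with erlotinib and to 2.82 and 3.20 CPM with osimertinib. This most abundant member was 16.8-fold lower with erlotinib (-4.07 ± 0.12, adjusted p = 1.49e-21) and 22.1-fold lower with osimertinib (-4.47 ± 0.12, adjusted p = 9.75e-22).

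SPRED1, the gene mutated in Legius syndrome, went from 46.7 and 53.5 CPM at T0 to 7.30 and 7.57 CPM with erlotinib and to 7.35 and 7.46 CPM with osimertinib. The 4 drug-treated libraries lay within a narrow range, far below T0. SPRED1 was 6.73-fold lower with erlotinib (-2.75 ± 0.12, adjusted p = 7.27e-18) and 6.76-fold lower with osimertinib (-2.76 ± 0.12, adjusted p = 1.11e-17).

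SPRED3 was the least abundant tested member per length at T0 in PC9. It had 80 and 108 reads at T0 (4.03 and 5.33 CPM), 42 and 42 reads with erlotinib (1.88 and 1.64 CPM), and 45 and 34 reads with osimertinib (2.08 and 1.91 CPM). Neither drug's libraries overlapped T0. It was 2.66-fold lower with erlotinib (-1.41 ± 0.26, adjusted p = 3.69e-05) and 2.34-fold lower with osimertinib (-1.23 ± 0.27, adjusted p = 0.000234).

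**Figure D2:**
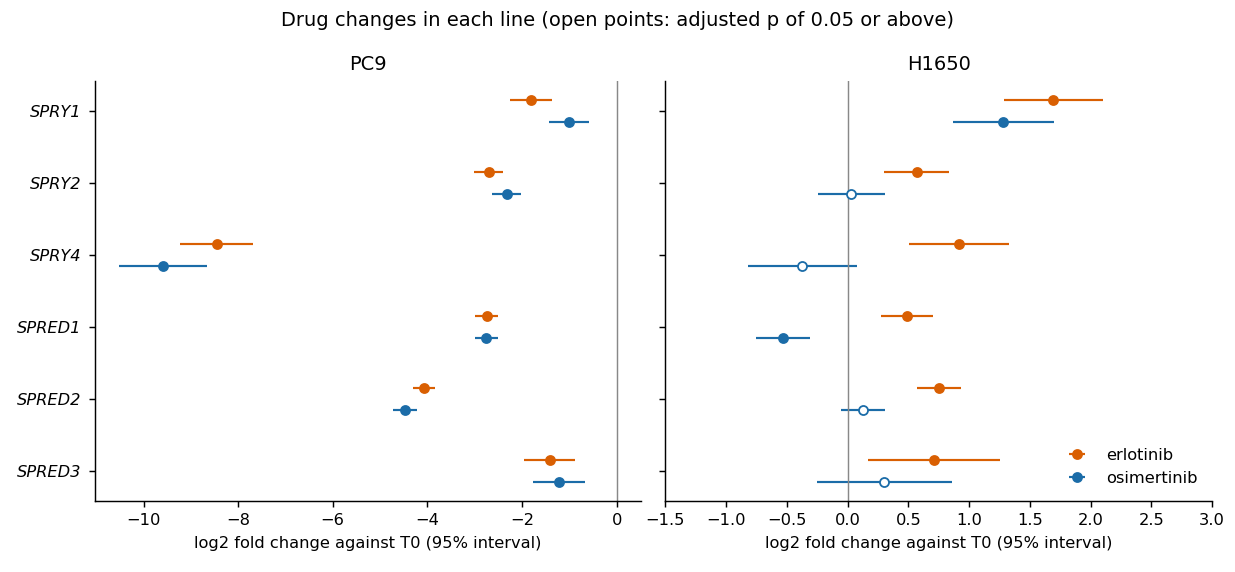
Log2 fold change against T0 (x axis, one scale per line) of each tested member in PC9 (left) and H1650 (right). The 95% intervals were derived from the fold change and edgeR's F statistic, and filled points had an adjusted p under 0.05. For SPRY4 in PC9 the intervals (-9.22 to -7.68 with erlotinib, -10.51 to -8.67 with osimertinib) rest on 0 to 2 reads per drug-treated library. They understate its uncertainty. All 12 PC9 points lie below 0, the 6 H1650 erlotinib points lie above 0, and 4 of the 6 H1650 osimertinib points are open.

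In H1650 cells, the tested family changed the other way from T0 to 36 h with erlotinib. All 6 tested members were higher than at T0, where 18.0% of the tested genes were called higher and 18.5% lower, and their median log2 fold change was 0.73, against 0.01 over all tested genes. SPRY1 rose most. It had 4.29 and 3.59 CPM at T0 and 15.015 and 10.4 CPM with erlotinib, so that both erlotinib libraries were above both T0 libraries. It was 3.23-fold higher (log2 fold change 1.69 ± 0.20 SE, adjusted p = 9.19e-08).

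SPRY4 had 4.62 and 5.44 CPM at T0 in H1650 and 9.65 and 9.40 CPM with erlotinib, a 1.89-fold rise (0.92 ± 0.20, adjusted p = 0.000578). SPRY2 had 11.7 and 12.3 CPM at T0 and 16.5 and 19.1 CPM with erlotinib, a 1.48-fold rise (0.57 ± 0.13, adjusted p = 0.000953). In both genes the libraries of the groups did not overlap.

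SPRED2 had 39.0 and 41.0 CPM at T0 and 69.7 and 64.8 CPM with erlotinib, a 1.68-fold rise (0.75 ± 0.09, adjusted p = 1.10e-07). SPRED1 had 23.6 and 22.9 CPM at T0 and 31.9 and 33.3 CPM with erlotinib, a 1.404-fold rise (0.49 ± 0.10, adjusted p = 0.000416). SPRED2 thus reached the level of PC9 T0 cells, where it had 64.6 and 68.1 CPM, and the libraries of these groups overlapped.

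SPRED3 gave the least secure of these calls. It had 1.91 and 2.47 CPM at T0 in H1650 and 3.30 and 3.91 CPM with erlotinib (0.71 ± 0.26, adjusted p = 0.0345). The call was lost with DESeq2 (adjusted p = 0.123), with no expression filter (0.053) and at a threshold of 0.01. It was also lost without T0 replicate 1 (log2 fold change 0.55, adjusted p = 0.214), without erlotinib replicate 1 (0.83, 0.0521) and without erlotinib replicate 2 (0.58, 0.211).

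With osimertinib, the H1650 family showed no common direction. Of the 6 tested members, 1 was called higher and 1 lower, where 17.8% and 17.9% of the tested genes were, and the median log2 fold change was 0.08. SPRY1 rose again, to 9.88 and 9.22 CPM from 4.29 and 3.59 at T0, which was 2.43-fold higher (1.28 ± 0.20, adjusted p = 9.43e-06). SPRED1 fell, to 15.2 and 17.0 CPM from 23.6 and 22.9, which was 1.44-fold lower (-0.53 ± 0.11, adjusted p = 0.000304).

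The other 4 members did not pass the test in H1650 osimertinib cells. SPRY2 had 12.8 and 11.8 CPM, overlapping T0 (0.03, 95% interval -0.24 to 0.30). SPRED2 had 45.5 and 41.8 CPM, just above T0 (0.13, interval -0.06 to 0.31), and SPRED3 had 2.82 and 2.63 CPM, also above T0 (0.30, interval -0.25 to 0.86). SPRY4 had 2.82 and 4.94 CPM (-0.37, interval -0.82 to 0.08), and its replicates were far apart. Without osimertinib replicate 2, SPRY4 was called lower (-0.84, adjusted p = 0.0141).

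**Figure D3:**
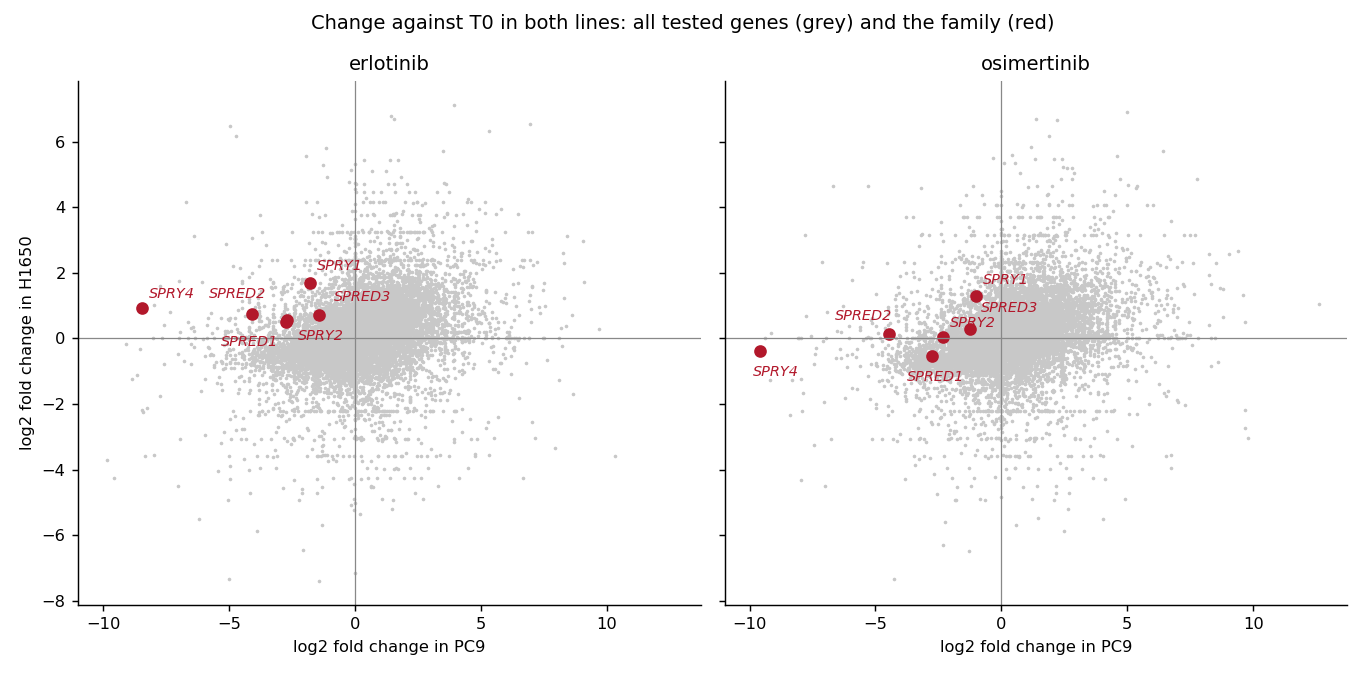
Log2 fold change against T0 in PC9 (x axis) and H1650 (y axis) for erlotinib (left) and osimertinib (right); grey points are the 19108 tested genes and red points the 6 members. With erlotinib all members sit in the upper left quadrant, lower in PC9 and higher in H1650, and with osimertinib they lie left of 0 and scatter around 0 on the H1650 axis.

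The difference between the lines in their response was tested directly, with the log2 fold change in PC9 subtracted from that in H1650. It was positive and called for all 6 members with erlotinib and for all 6 with osimertinib, where 21.1% and 21.5% of the tested genes were called in that direction. Both drugs' differences use the same T0 libraries. Apart from SPRY4, SPRED2 had the largest difference, 4.82 ± 0.15 with erlotinib (adjusted p = 1.46e-19) and 4.59 ± 0.16 with osimertinib (adjusted p = 9.37e-19) on the log2 scale. SPRED3 had the smallest, 2.12 ± 0.37 (adjusted p = 3.22e-05) and 1.53 ± 0.38 (adjusted p = 0.00164). The medians over the 6 were 3.38 and 2.33, against -0.03 and -0.03 over all tested genes.

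Between the lines, the order of the levels at T0 was inverted under drug. With erlotinib all 6 members were higher in H1650 than in PC9, where 36.7% of the tested genes were called higher, from 1.04 ± 0.27 for SPRED3 (adjusted p = 0.00124) to 4.09 ± 0.12 for SPRED2 (adjusted p = 4.67e-22) among the 5 other than SPRY4. SPRY4 had 389 summed reads in H1650 erlotinib cells against 3 in PC9, a ratio of 152.1 (exact 95% counting interval 51.67 to 740.9). With osimertinib 5 of the 6 were higher in H1650, where 36.6% of the tested genes were. The exception was SPRED3, whose difference was 0.44 (interval -0.13 to 1.02, adjusted p = 0.158).

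The drugs were next set against each other as given, at 10 μM erlotinib and 0.1 μM osimertinib. The T0 levels do not enter this difference, but the T0 libraries enter the filter, normalization and shared estimate of the spread. In PC9, 1 of the 6 members differed, in the direction in which 10.1% of the tested genes did. SPRY1 was 1.73-fold higher with osimertinib than with erlotinib (0.79 ± 0.24, adjusted p = 0.0199). This call was lost without erlotinib replicate 1 (0.63, adjusted p = 0.148) and without osimertinib replicate 2 (0.55, adjusted p = 0.251). For SPRED1 the difference was -0.01 with an interval of -0.29 to 0.27, and for SPRED2 it was -0.40 with an interval of -0.74 to -0.05 (adjusted p = 0.117).

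In H1650, 4 of the 6 were lower with osimertinib than with erlotinib, where 3.73% of the tested genes were called lower and 5.02% higher. SPRY4 was 2.44-fold lower (-1.29 ± 0.21, adjusted p = 0.000102) and SPRED1 2.03-fold lower (-1.02 ± 0.11, adjusted p = 1.08e-07). SPRED2 was 1.54-fold lower (-0.62 ± 0.09, adjusted p = 1.42e-05) and SPRY2 1.45-fold lower (-0.54 ± 0.13, adjusted p = 0.00775). The SPRY2 call was lost without erlotinib replicate 2 (-0.42, adjusted p = 0.16) and without osimertinib replicate 2 (-0.48, adjusted p = 0.0963). SPRY1 (-0.41, interval -0.78 to -0.04, adjusted p = 0.179) and SPRED3 (-0.41, interval -0.94 to 0.12, adjusted p = 0.399) did not pass.

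Whether this contrast of the drugs depended on the line was also tested. It was more negative in H1650 than in PC9 for 3 of the 6 members, where 3.40% of the tested genes were called in that direction. The difference was -1.20 ± 0.30 for SPRY1 (adjusted p = 0.0135), -1.01 ± 0.17 for SPRED1 (adjusted p = 0.000362) and -0.92 ± 0.22 for SPRY2 (adjusted p = 0.0113). The SPRY1 call was lost without PC9 erlotinib replicate 1 (-1.04), PC9 osimertinib replicate 2 (-0.96) or H1650 erlotinib replicate 1 (-0.92), and the SPRY2 call without PC9 erlotinib replicate 1 (-0.84), PC9 osimertinib replicate 2 (-0.83) or H1650 erlotinib replicate 2 (-0.80).

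**Figure D4:**
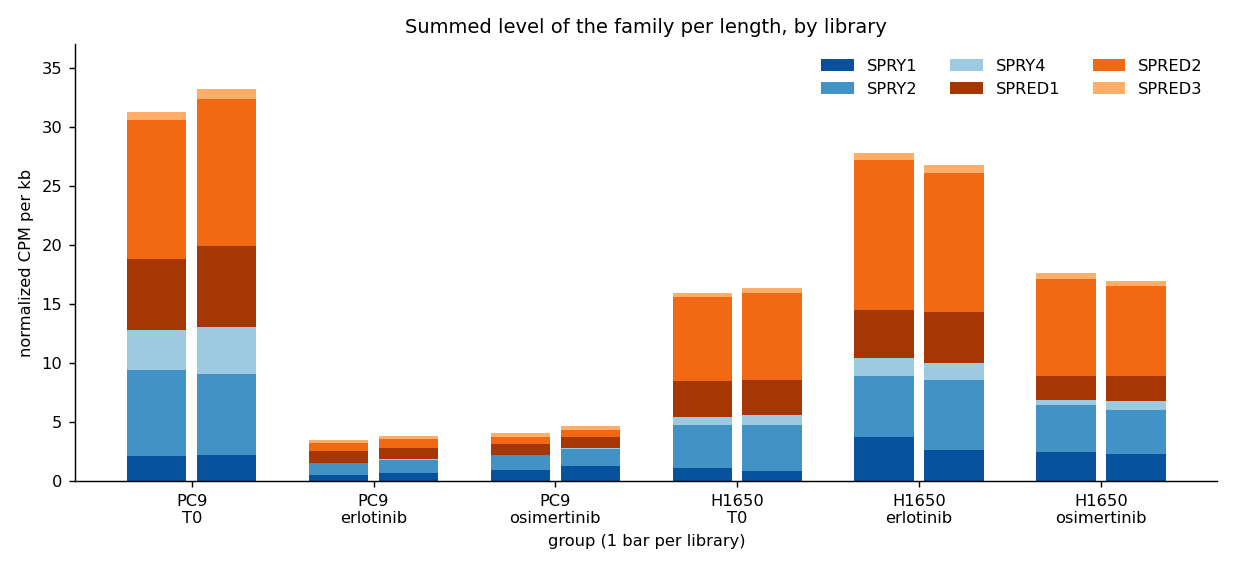
Summed normalized CPM per kb of transcript (y axis, linear from 0) of the 6 tested members, 1 bar per library, with Sprouty genes in blue and SPRED genes in orange. The bars stand at 31.2 and 33.2 in PC9 T0 and at 3.52 to 4.65 in the 4 drug-treated PC9 libraries, and at 15.9 and 16.4, 27.7 and 26.8, and 17.6 and 17.0 in the H1650 groups.

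Summed over the 6 tested members and scaled per length, the level was 32.2 ± 1.41 CPM per kb in PC9 T0 cells, 3.69 ± 0.235 with erlotinib and 4.36 ± 0.416 with osimertinib (SD, n = 2). In H1650 it was 16.1 ± 0.35 at T0, 27.3 ± 0.697 with erlotinib and 17.3 ± 0.447 with osimertinib. The make-up of the sum changed as well. SPRED2 made up 37.4% of it in PC9 T0 cells and 19.3% and 12.5% in PC9 erlotinib and osimertinib cells, while SPRY1 went from 6.82% to 17.0% and 25.2%. In H1650 the SPRED2 share lay between 44.8% and 45.9% in all 3 groups. The 3 tested Sprouty genes together made up 40.1% ± 1.18, 46.5% ± 2.07 and 57.6% ± 3.21 in the PC9 groups and 34.1% ± 0.0945, 37.5% ± 0.0238 and 39.5% ± 0.405 in the H1650 groups, in the order T0, erlotinib and osimertinib. With a member this low, such shares rest on few reads, 118 summed reads for SPRED2 in PC9 osimertinib cells.

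The order of the 6 groups differed between members. SPRY2, SPRY4, SPRED1 and SPRED3 were highest in PC9 T0 cells, followed by H1650 erlotinib cells, and these groups did not overlap. SPRED2 had the same leading groups, which overlapped. SPRY1 was highest in H1650 erlotinib cells at 12.7 ± 3.24 CPM and next in H1650 osimertinib cells at 9.55 ± 0.467 CPM, ahead of PC9 T0 cells at 8.70 ± 0.187 CPM. At the low end, PC9 osimertinib and H1650 T0 cells overlapped for SPRY1 and SPRED3, and the drug-treated PC9 groups overlapped for SPRY4 and SPRED1. H1650 osimertinib and T0 cells overlapped for SPRY2 and SPRY4. The share of all tested genes with such orders or without such overlaps was not counted.

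**Figure D5:**
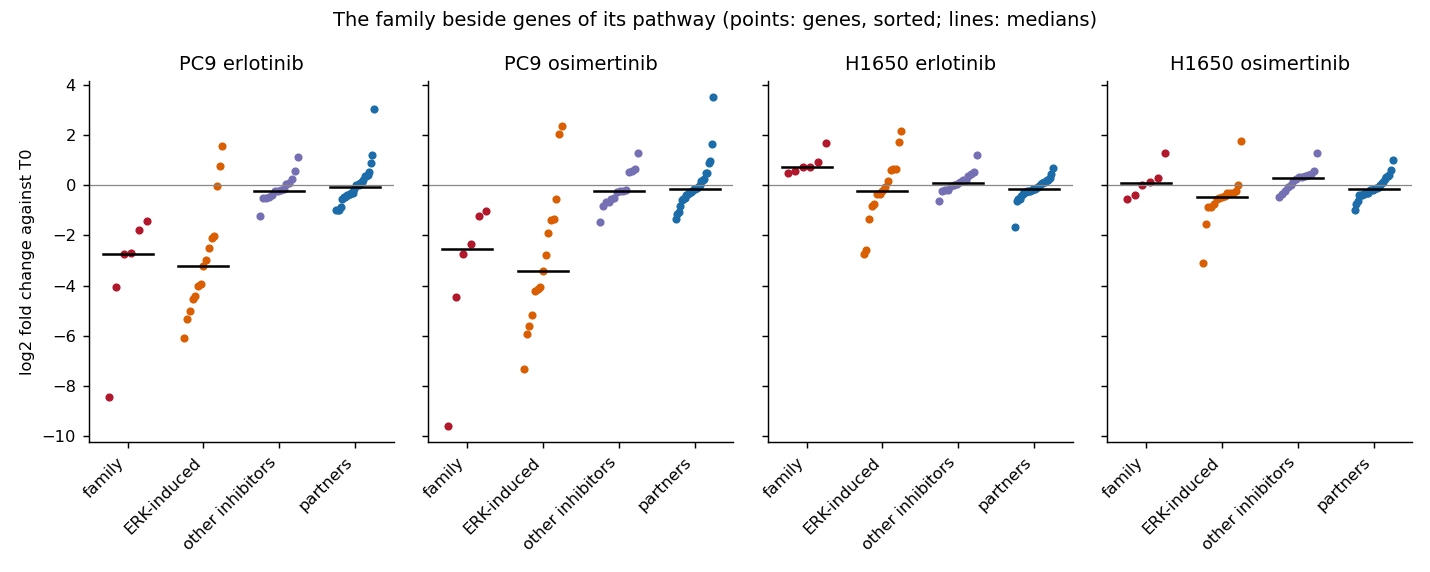
Log2 fold change against T0 (y axis) in the 4 drug comparisons, for the 6 family members (red), 15 ERK-induced genes (orange), 14 other inhibitors of receptor or RAS signaling (purple) and 26 partners of the family (blue); points are genes sorted by value and black lines are medians. In PC9 the family and the ERK-induced genes extend far below 0 while the other lists center near 0, and in H1650 erlotinib cells the family median of 0.73 is above that of each other list.

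Other genes of the pathway were examined as lists, chosen like the family with earlier results of these data known. The counts of each list below are to be read beside the shares over all tested genes. In PC9, 32.7% were called higher with either drug, and 29.1% and 28.7% lower with erlotinib and osimertinib. In H1650, 18.0% and 17.8% were called higher, and 18.5% and 17.9% lower, in the same order. Among 15 genes induced by ERK, 12 were lower and 2 higher in PC9 with erlotinib, and 13 were lower and 2 higher with osimertinib, with medians of -3.22 and -3.40. The ETS factors ETV5 and ETV4 fell by 6.08 and 5.03 on the log2 scale with erlotinib, and DUSP6, the ERK phosphatase, fell by 5.33. The nuclear phosphatase DUSP4 fell by 3.93, the receptor EPHA2 by 4.02 and PHLDA1 by 3.22. The receptor EPHA4 rose by 1.59 and the immediate early factor EGR1 by 0.78, and 1 gene of the list did not pass. With osimertinib, ETV5 was again the lowest (-7.35) and EGR1 the highest (2.35).

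In H1650 the ERK-induced list was mixed. With erlotinib 4 of the 15 were higher and 7 lower, with a median of -0.23 against the 0.73 of the family. ETV1 (2.16), ETV5 (1.71), PHLDA1 (0.66) and DUSP4 (0.66) rose, while FOSL1 (-2.75), a component of AP-1, and EGR1 (-2.57) fell, together with EPHA4 (-0.83) and EPHA2 (-0.36). DUSP6 (0.61, adjusted p = 0.0836) and ETV4 (0.18, adjusted p = 0.446) did not pass. With osimertinib 1 was higher (ETV1, 1.78) and 11 were lower, including ETV4 (-0.85), DUSP4 (-0.53), EPHA4 (-0.75), EPHA2 (-0.29) and FOSL1 (-3.12). ETV5 (-0.29, adjusted p = 0.196), PHLDA1 (0.00, adjusted p = 1) and DUSP6 (-0.24, adjusted p = 0.59) did not pass. Directly between the drugs, 6 of these 15 were lower with osimertinib and 2 higher, where 3.73% and 5.02% of the tested genes were. ETV5 was lowest (-2.005, adjusted p = 2.18e-10).

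Of 28 listed partners of the family 26 were tested, and the other 2 were not analysed here. In PC9, 8 were higher and 12 lower with erlotinib (median -0.08), and 7 were higher and 12 lower with osimertinib (median -0.15). NF1, the partner of the SPRED proteins, had 81.5 and 87.4 CPM at T0 in PC9 and 72.7 and 78.7 CPM with erlotinib (-0.16, adjusted p = 0.104). With osimertinib NF1 was lower by a small amount (-0.25, adjusted p = 0.0113). The Sprouty partners GRB2 (-0.48 and -0.41) and CBL (-0.36 and -0.49) fell in PC9 with erlotinib and osimertinib. The list's extremes in PC9 with erlotinib were HRAS (-0.97) and CBLB (3.03), a ubiquitin ligase related to CBL, which went from 8.82 and 9.48 CPM at T0 to 73.6 and 76.4 CPM.

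In H1650, 4 partners were higher and 10 lower with erlotinib, and 5 were higher and 12 lower with osimertinib. CBL fell with both drugs (-0.63 and -0.63), while NF1 (-0.11 and -0.11) and GRB2 (-0.06 and 0.03) did not pass. CAV1, a membrane scaffold, was lowest with erlotinib (-1.65) and CBLB highest (0.71). KIT, the receptor bound by SPRED1 and SPRED2, had 0 reads in all 6 PC9 libraries and 8.77 to 14.9 CPM in the H1650 libraries.

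Of 14 other inhibitors of receptor or RAS signaling, 3 were higher and 6 lower in PC9 with erlotinib, and 4 were higher and 7 lower with osimertinib. The FGF receptor antagonist IL17RD was lower (-0.52 and -0.65), as was ERRFI1 (-0.45 and -0.82), which encodes an inhibitor of the EGFR kinase. The lowest with erlotinib was LRIG3 (-1.21). In H1650, 5 were higher and 2 lower with erlotinib, and 6 were higher and 2 lower with osimertinib. ERRFI1 rose (0.21 and 0.34), IL17RD did not pass (0.20, adjusted p = 0.385, and 0.36, adjusted p = 0.0869), and the extremes with erlotinib were RASAL2 (-0.64) and RASAL1 (1.21).

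Across the 12 libraries, the log2 CPM of SPRY2, SPRY4, SPRED1 and SPRED2 were closely correlated, with Pearson's r from 0.923 (SPRED1 and SPRED2) to 0.98 (SPRY4 and SPRED2). SPRY1 followed the others least, with r from 0.693 (SPRED1) to 0.806 (SPRY2). These values are descriptions over 6 groups of 2 libraries that fall into separate clusters by line and drug, so no p is given.

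The genes outside the family with the most similar pattern were also sought among 10291 genes with a mean of at least 10 CPM. For SPRED2 they were ADGRA3 (r = 0.994), MGME1 (0.992) and PCDH1 (0.989). For SPRY4 they were ACOT7 (0.988), PCNA (0.987) and MCM3 (0.984), the latter 2 encoding parts of the DNA replication machinery. These ranks for SPRY4 depend on the measure, and the gene had at most 2 reads in any drug-treated PC9 library. By Spearman correlation the 3 most similar genes were instead ETV5 (0.965), PTP4A2 (0.965) and ANAPC5 (0.958). PCNA had 313 ± 10.8 CPM in PC9 T0 cells, 36.6 ± 1.31 with erlotinib and 43.2 ± 5.5 with osimertinib, and 187 ± 5.73, 184 ± 5.38 and 166 ± 5.86 CPM in the H1650 groups, so its mean in H1650 erlotinib cells was not above that at T0, unlike the mean of SPRY4.

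For SPRY2 the most similar genes were TGM2 (r = 0.985), PTPN3 (0.981) and PCNA (0.979), and for SPRED1 they were FBXO45 (0.986), ETV5 (0.978) and CBFB (0.976). ETV5 had 62.8 ± 1.04 CPM in PC9 T0 cells and 0.939 ± 0.445 and 0.381 ± 0.0159 with the drugs, and in H1650 it had 5.89 ± 0.944 at T0, 19.4 ± 0.283 with erlotinib and 4.85 ± 0.367 with osimertinib. The nearest genes were less close for SPRY1, namely LGR4 (0.92), NUDT19 (0.909) and PLEKHG5 (0.908), and for SPRED3, namely HIP1 (0.938), RASSF3 (0.925) and TMEM62 (0.922). LGR4, like SPRY1, was highest in the drug-treated H1650 groups, at 115 ± 6.34 and 115 ± 8.05 CPM against 72.4 ± 1.16 at T0, and it had 90.2 ± 1.35 CPM in PC9 T0 cells and 55.8 ± 4.38 with erlotinib.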

How the data were processed

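RNA-seq libraries of PC9 and H1650 cells were compared in 6 groups of 2 replicates, as their labels give them. The study calls the replicates biological, and p-values cover only the spread between these libraries. The authors processed the reads with DolphinNext, and featureCounts assigned them to genes. The deposited values are raw counts per gene and library. The submitters' processing notes name GRCh38 and DESeq2. The aligner, annotation and strandedness are not given in the sources used here, so reads of a gene and its antisense partner may not be told apart. Library totals ranged from 17961765 to 26346187, and a count of 0 allows up to 3 reads, 0.116 to 0.168 CPM.

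The tests were run with edgeR 4.0.16 in R 4.3.3 (TMM, expression filter by group with a minimum count of 10, quasi-likelihood F-test, Benjamini-Hochberg adjustment over 19108 genes, called under 0.05). A single model with 6 groups was fitted to all 12 libraries (6 residual and 20.7 prior degrees of freedom). Standard errors and 95% intervals were derived from each log2 fold change and its F statistic. The procedure was also run on simulated counts in which few genes changed, in a single group. That setting is simpler than these data and does not test calls for genes with hardly any reads. Log2 CPM for correlations used a prior count of 2. Levels between genes were divided by the deposited gene length. Promoter windows came from RefSeq (GRCh38.p14) and gene positions from GENCODE 29 (GRCh38). No protein sequences were used here.

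All 7 members are named. Values are also given for 12 fixed pathway genes and for the highest and lowest gene of each list with erlotinib in each line, except for some genes that are not reported here, as well as for the 3 genes most like each tested member. Further list genes (ETV1 and the extremes with osimertinib), KIT, COL1A1, the pseudoautosomal genes and the Spearman genes of SPRY4 were named after their values were seen. The members and lists were chosen with earlier results of these data known. Alternatives were upper quartile and RLE normalization, DESeq2 1.42.0, no filter, at least 10 counts in every library, a threshold of 0.01, one fit per line, the replicate number as a block, leaving out each library, and Spearman correlation.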

Additional observations from a re-analysis of the deposited data

Results flagged for a closer look

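The drug response of each tested member differed between the lines by a test of the difference itself (change in H1650 minus change in PC9, log2 scale, edgeR). With erlotinib it was 3.49 for SPRY1, 3.27 for SPRY2, 9.37 for SPRY4, 3.24 for SPRED1, 4.82 for SPRED2 and 2.12 for SPRED3. With osimertinib it was 2.29 for SPRY1, 2.36 for SPRY2, 9.21 for SPRY4, 2.23 for SPRED1, 4.59 for SPRED2 and 1.53 for SPRED3. The SPRY4 values depend on the prior count and on 0 to 2 reads per drug-treated PC9 library, and over the fits without 1 library they ran from 8.89 (PC9 erlotinib replicate 2) to 9.97 (PC9 erlotinib replicate 1) and from 8.22 (PC9 osimertinib replicate 1) to 11.67 (PC9 osimertinib replicate 2). The adjusted p-values ran from 1.46e-19 (SPRED2, erlotinib) to 0.00164 (SPRED3, osimertinib).

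The contrast of osimertinib with erlotinib also differed between the lines, by -1.20 for SPRY1, -0.92 for SPRY2 and -1.01 for SPRED1. The SPRED1 call held in each fit without 1 library, while SPRY1 lost its call without PC9 erlotinib replicate 1 (-1.04), PC9 osimertinib replicate 2 (-0.96) or H1650 erlotinib replicate 1 (-0.92), and SPRY2 without PC9 erlotinib replicate 1 (-0.84), PC9 osimertinib replicate 2 (-0.83) or H1650 erlotinib replicate 2 (-0.80).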

How the results depend on the processing

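Of 72 values (6 members in 12 comparisons), all kept their direction and side of the threshold with upper quartile normalization and with the replicate number as a block, as did the 60 left when every library had to hold 10 counts or more, which dropped SPRY4, and the 36 that one fit per line can give. DESeq2 reversed uncalled values of SPRED1 in PC9 osimertinib against erlotinib (0.001986) and of SPRY4 in the line dependence of that contrast (0.007161), and RLE reversed the same SPRED1 value (0.001999). DESeq2, no filter and a threshold of 0.01 each lost the SPRED3 call in H1650 with erlotinib. At a threshold of 0.01, 0 members in place of 1 were called in PC9 osimertinib against erlotinib and 1 in place of 3 in its line dependence. Leaving out 1 library at a time gave 0 to 1 and 1 to 3 members called in these comparisons, each lowest count without PC9 erlotinib replicate 1 or PC9 osimertinib replicate 2. These fits reversed 3 uncalled values, which ranged from -0.02684 to 0.08839 for SPRY2 in H1650 with osimertinib, from -0.0343 to 0.01965 for SPRED1 in PC9 osimertinib against erlotinib, and from -1.141 to 2.298 for SPRY4 in the line dependence. A library left alone in its group was assumed to vary like the others.

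Over all tested genes, the counts of called genes moved by over 1.5 times only for the contrasts of the drugs with each other. In PC9 3163 genes became 1930 at a threshold of 0.01 and 2108 without osimertinib replicate 2. In H1650 1672 became 912 at a threshold of 0.01, 2670 with the replicate number as a block, 1093 and 1045 without erlotinib replicate 1 or 2, and 782 without osimertinib replicate 1. In their line dependence 995 became 500 at a threshold of 0.01 and 1722 with the block. Same-numbered replicates had correlations of -0.067 to 0.095 between groups over 15 pairs, none over 0.1, so the numbers were not taken to pair the libraries. By Spearman correlation, between 0 (SPRY4) and 2 (SPRED3) of the 3 most similar genes were shared with the Pearson ranking. Depth limits the drug-treated PC9 level of SPRY4.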
